A study of Mus musculus with 6 samples.

Results

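Mitochondrial carrier and uncoupling protein genes were compared between embryonic mouse heart cells expressing the histone mutant H3K9M and cells expressing wild-type histone H3.3 (H3WT). Of 42 such genes 41 were tested and 1 was called in edgeR, close to the 1.99% called among all tested genes. Ucp2, which encodes an uncoupling protein of many tissues, rose from 18.2 ± 2.02 CPM (read counts scaled to a common library size; SD, n = 3) in H3WT to 55.0 ± 5.42 CPM in H3K9M, a 3.02-fold difference. The members are the rows of the raw count table whose symbol is Slc25a or Ucp followed by a number and whose counts summed over the 6 libraries reach 60. They are 42 of the 43 rows with such a symbol, out of 15159 genes in all. The summed count chose the members, so their presence and level are given as a description. The rule itself does not use the difference between the groups, but the family was chosen with earlier results of these data known.

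Both groups were cardiac cells of C57BL/6 x 129S4/SvJae mouse embryos at embryonic day 18.5, cultured for 4 days at 50000 cells per cm2 on PDMS, a silicone, with a stiffness of 13 kPa that the submitters call soft. The protocols give this culture for every library, but the titles differ: replicate 1 of both groups lacks the mark D4 and replicate 2 of both groups lacks the mark Soft, and whether these libraries were cultured otherwise is not stated. All of them received 2 µg/ml doxycycline, on days 0, 1 and 2 of culture, to switch on a transgene for histone H3.3, either wild-type (H3WT) or with methionine in place of a lysine (H3K9M). As background, such lysine-to-methionine mutants are known to lower methylation of that lysine on other H3 molecules too, which was not measured here. Each group had 3 libraries of polyadenylated RNA, and the design compares the transcripts of the 2 groups. The labels do not state the promoter or the cell type of the transgene, nor whether the libraries of a group stem from different embryos. The p-values therefore rest on a spread that may in part be technical. Libraries of the same group did differ in sex-linked transcripts. Xist, the RNA of the inactive X chromosome, was at 71.3 to 376 CPM in H3WT and at 136 to 265 CPM in H3K9M. Library totals ran from 55550379 to 67994773 counts, and 14758 genes had enough counts for the test. Heart muscle markers were abundant everywhere, with a summed level of 28360 to 34954 CPM for 10 cardiomyocyte genes in H3WT and 30054 to 33780 CPM in H3K9M, and fibroblast genes were of the same order (24444 to 31291 and 19724 to 28507 CPM for 10 genes). Of the fibroblast genes 7 of 10 had negative fold changes, with a median of -0.52 on the log2 scale. Among the 10, 1 was called, where 1.99% of all tested genes were. It was the collagen receptor gene Ddr2, which rose from 267 ± 28.2 to 422 ± 32.6 CPM (edgeR adjusted p = 0.0210). The most abundant of them, Fn1, was at 12074 ± 976 CPM in H3WT against 8582 ± 1021 CPM in H3K9M (adjusted p = 0.0797). Col1a1 was at 5498 ± 504 and 5930 ± 1015 CPM (adjusted p = 0.761).

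Mitochondrial carriers are related proteins of the inner mitochondrial membrane, nearly all named SLC25, that exchange metabolites, nucleotides, phosphate and cofactors between the matrix and the cytosol. In heart muscle the ADP/ATP and phosphate carriers feed the ATP synthase and release its product, the aspartate-glutamate and oxoglutarate carriers run the malate-aspartate shuttle, and the carnitine-acylcarnitine carrier admits fatty acids for oxidation. Uncoupling proteins belong to the same family. UCP1 of brown fat lets protons leak back into the matrix, whereas UCP2 and UCP3 have been tied to the control of reactive oxygen species and of fuel use, and their biochemical activity is debated.

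Ucp2 and Ucp3 are neighbours on mouse chromosome 7, on the same strand, at 100493337 to 100502020 and 100472990 to 100486432 in GENCODE M21 (build GRCm38, also called mm10). The sequences upstream of their start sites are shown because the pair is encoded side by side while the levels of the 2 transcripts in these cells lie far apart. Both are the plus strand of RefSeq's GRCm38.p6 promoter windows, from 250 to 22 bases before the start, chr7:100493108-100493336 for Ucp2 and chr7:100472741-100472969 for Ucp3, with CpG dinucleotides in capitals.
Ucp2: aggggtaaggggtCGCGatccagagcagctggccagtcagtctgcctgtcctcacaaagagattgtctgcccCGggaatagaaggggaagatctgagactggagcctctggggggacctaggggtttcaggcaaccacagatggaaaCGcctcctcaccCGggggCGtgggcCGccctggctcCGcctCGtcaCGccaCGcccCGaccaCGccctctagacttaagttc
Ucp3: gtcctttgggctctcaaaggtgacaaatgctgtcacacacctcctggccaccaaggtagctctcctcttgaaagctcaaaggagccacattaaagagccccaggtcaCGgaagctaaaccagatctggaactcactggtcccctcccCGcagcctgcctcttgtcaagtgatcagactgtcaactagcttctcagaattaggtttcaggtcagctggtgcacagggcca
The Ucp2 stretch holds 13 CpG dinucleotides and the Ucp3 stretch 2, where the median over 32851 promoter windows of the same length was 5. At least 13 were present in 27.6% of all windows and at least 2 in 79.1%. The 42 windows found for 33 of the 42 members had a median of 9.5. The motif AGGTCA, the half-site of many nuclear receptors, was searched on both strands. It was found 2 times in the Ucp3 stretch and 0 times in that of Ucp2, and 13.0% of all windows hold it.

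Ucp2 was at 20.5, 17.0 and 17.1 CPM in H3WT replicates 1 to 3 and at 54.5, 60.6 and 49.8 CPM in H3K9M replicates 1 to 3. Every H3K9M library stood far above every H3WT library, and the spread inside each group was small beside the gap. The log2 fold change was 1.59 ± 0.11 (SE; 95% interval 1.33 to 1.85) with an edgeR adjusted p of 0.00102. By p-value it ranked 5 among the 14758 tested genes. In that test 1.99% of all tested genes passed in either direction, 0.935% as higher and 1.05% as lower, so 1 call among the 41 members tested is close to the background and says nothing of the family as a whole. The call on Ucp2 held under each of the 16 alternative settings tried, with log2 fold changes between 1.51 and 1.69 and adjusted p-values of at most 0.0180. In the authors' deposited table the log2 fold change of Ucp2 was 1.46 with a DESeq2 adjusted p of 7.18e-16, and Ucp2 was the 1 member of 41 listed there that passed. The share of all genes that passed there was not computed, and its mean counts lay far below the deposited counts, as given below.

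**Figure D1:**
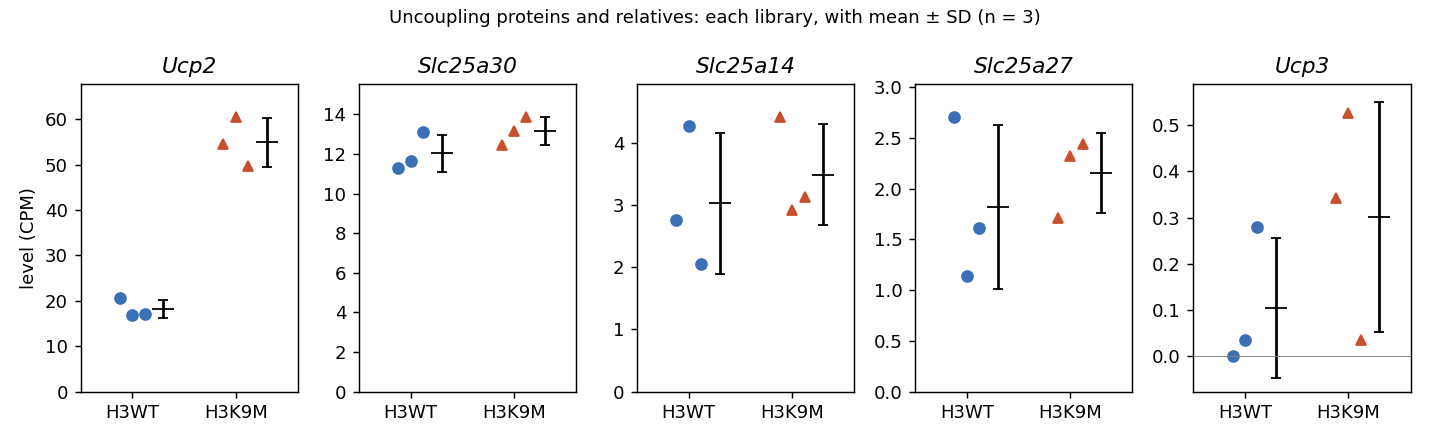
Level in CPM (vertical axes, each from 0 or just below it) of the uncoupling protein genes Ucp2 and Ucp3 and of their relatives Slc25a30, Slc25a14 and Slc25a27 in each H3WT library (circles) and H3K9M library (triangles), with the mean ± SD of 3 libraries in black. The H3K9M libraries of Ucp2 lie between 49.8 and 60.6 CPM and the H3WT libraries between 17.0 and 20.5 CPM, while the groups overlap for the other 4 genes.

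Ucp3, the uncoupling protein of skeletal muscle and heart, was barely detected. Its counts were 0, 2 and 19 in the H3WT libraries and 20, 32 and 2 in the H3K9M libraries, so libraries of either group were near 0. Its fitted log2 fold change of 1.45 ± 1.22 had an interval of -1.34 to 4.24 and an edgeR adjusted p of 0.609, which covers both a rise and a fall. Slc25a30, the kidney mitochondrial carrier relative of the uncoupling proteins, was at 11.3, 11.7 and 13.1 CPM in H3WT against 12.4, 13.2 and 13.9 CPM in H3K9M (log2 fold change 0.13 ± 0.12). Slc25a14 and Slc25a27, also called UCP5 and UCP4 and known mainly from the nervous system, were at 3.03 ± 1.13 and 1.82 ± 0.81 CPM in H3WT against 3.49 ± 0.81 and 2.16 ± 0.39 CPM in H3K9M. None of these 3 passed, with edgeR adjusted p-values of 0.642 to 0.803.

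In H3WT, Ucp2 held 1.82, 1.45 and 1.31 counts for each count of Slc25a30, and in H3K9M 4.38, 4.59 and 3.58. Its share of all counts on members went from between 0.562% and 0.710% to between 1.70% and 2.11%. Per kilobase of exon Ucp2 was at 2.61 CPM in H3WT, next to Slc25a15 (2.61) and Slc25a30 (2.63). In H3K9M it was at 7.86 CPM per kilobase, between Slc25a46 (9.04) and Slc25a10 (6.69). These places turn on the length used for Ucp2, 6989 bases of annotated exon, and may set it too low. By CPM alone Ucp2 in H3WT (17.0 to 20.5) stood above Slc25a15 (13.6 to 16.1) and Slc25a30 (11.3 to 13.1) in every library. In H3K9M its libraries (49.8 to 60.6) stood above those of Slc25a46 (48.7 to 49.3) and Slc25a10 (19.2 to 27.3).

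Ucp2 transcript is known to be plentiful in macrophages and other immune cells. Of 10 macrophage and leukocyte markers all 10 had negative fold changes, 0 passed in edgeR, and their summed level was 154 to 567 CPM in H3WT against 222 to 295 CPM in H3K9M. The ranges overlapped, with the highest and the lowest library both in H3WT. All 10 endothelial markers also had negative fold changes, with 0 called. Their summed level was 234 to 315 CPM in H3WT against 142 to 215 CPM in H3K9M, and these ranges did not overlap. Of the 10 genes 3 were lower without overlap, beside 11.3% of all tested genes. Of 10 epicardial and mesothelial markers 6 had positive and 4 negative fold changes. All 10 summed to 142 to 195 CPM in H3WT against 149 to 201 CPM in H3K9M. Of them 1 was called, where 1.99% of all tested genes were. It was the keratin gene Krt8, which rose from 0.92 ± 0.33 to 8.89 ± 4.40 CPM (edgeR adjusted p = 0.0159). Whether any of these cell types contributed to the difference in Ucp2 was not tested. In RNA of mixed cells, fewer cells of a type and less transcript per cell cannot be told apart.

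Within 200 kb of the Ucp2 start 7 other genes were tested, and 0 passed in edgeR, 0 of them also at an unadjusted p under 0.05, with adjusted p-values from 0.446 to 0.879. With 1.99% of all tested genes called, 0 of 7 is near the background. These genes were looked up after the value of Ucp2 had been seen. Ppme1, a protein phosphatase methylesterase gene, was at 85.4 ± 7.86 CPM in H3WT against 94.6 ± 4.83 CPM in H3K9M (log2 fold change 0.15 ± 0.09). C2cd3, a centriole gene, was at 27.6 ± 0.76 and 24.7 ± 2.00 CPM (-0.16 ± 0.09), and Mrpl48, a subunit gene of the mitochondrial ribosome, at 30.8 ± 0.46 and 31.5 ± 1.28 CPM (0.03 ± 0.08). The 3' end of Ucp2 in the annotation overlaps exons of Dnajb13 on the other strand, which share 3.53% of the 50-base words of Ucp2 transcripts. Dnajb13 has no entry under that name among the 15159 genes, so it could not be tested and is not among the 7.

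**Figure D2:**
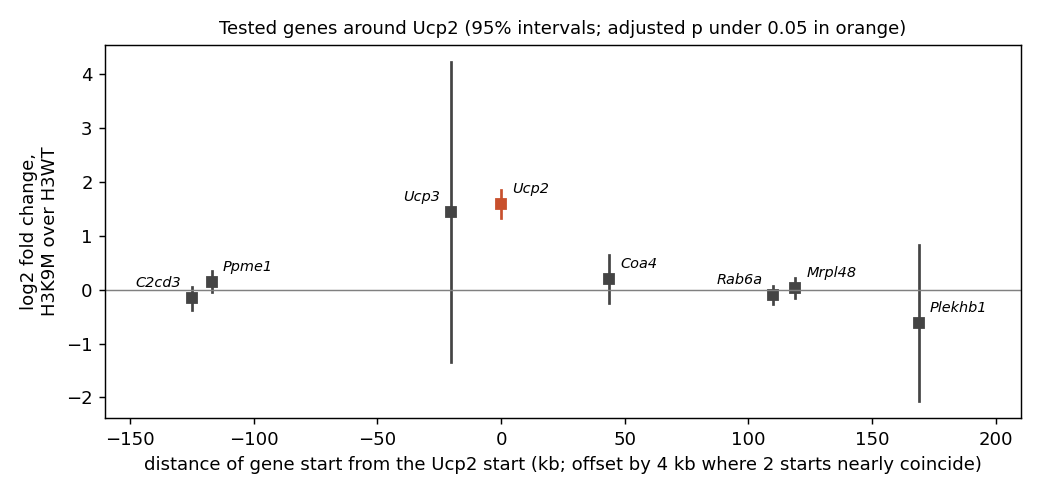
Log2 fold change of H3K9M over H3WT with its 95% interval (vertical axis) for Ucp2 and the 7 other tested genes whose start lies within 200 kb, against the distance of their start from that of Ucp2 in kb (horizontal axis, shifted by 4 kb where 2 starts nearly coincide). Ucp2 at 1.59 stands clear of 0, whereas the intervals of the 7 others include 0, that of Ucp3 from -1.34 to 4.24.

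Carriers of adenine nucleotides and phosphate were by far the most abundant members. Slc25a4, the ADP/ATP carrier ANT1 of heart and muscle, was at 1032, 968 and 1060 CPM in H3WT against 924, 931 and 976 CPM in H3K9M. The lowest H3WT library lay just under the highest H3K9M library, and the log2 fold change of -0.11 ± 0.08 did not pass (edgeR adjusted p = 0.534). Slc25a5, the ADP/ATP carrier ANT2 of growing cells, was at 303, 336 and 377 CPM in H3WT against 347, 309 and 313 CPM in H3K9M, fully overlapping (-0.07 ± 0.10, adjusted p = 0.792). Of the 50-base words of Slc25a5 transcripts 33.8% also occur in other annotated genes, 21.1% in Gm5560, so its level is uncertain. Slc25a3, the phosphate carrier, was at 448, 445 and 481 CPM in H3WT against 511, 484 and 500 CPM in H3K9M. Its groups did not overlap, by a margin of a few CPM, and its log2 fold change of 0.12 ± 0.07 did not pass (adjusted p = 0.475). There were 3.404, 2.88 and 2.81 counts of Slc25a4 for each count of Slc25a5 in H3WT and 2.66, 3.01 and 3.12 in H3K9M, and these ranges overlapped. Together these 3 genes took 61.6% to 62.9% of all counts on members in H3WT and 59.7% to 61.1% in H3K9M.

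**Figure D3:**
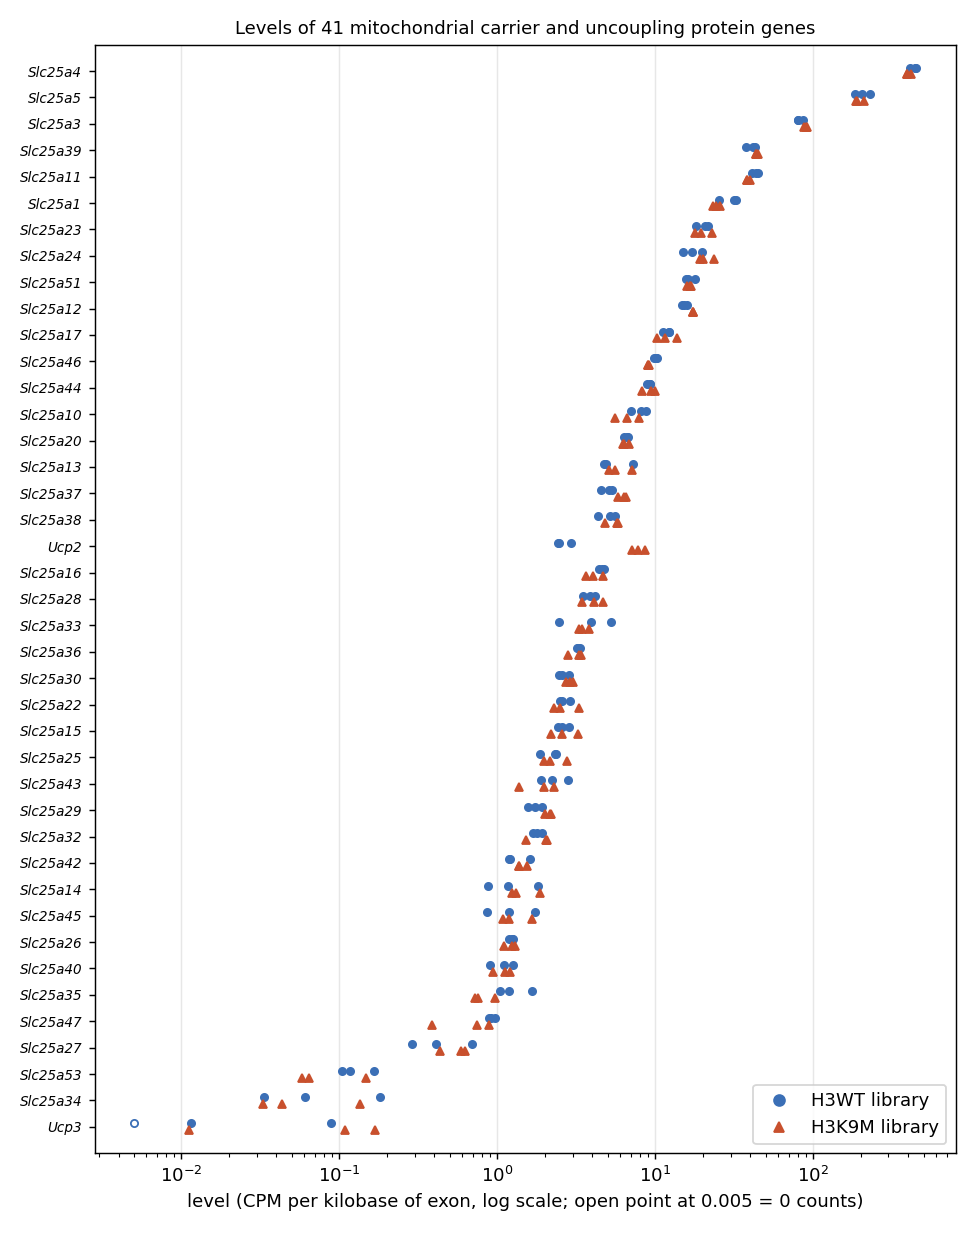
Level of 41 members in CPM per kilobase of exon (horizontal log axis) in the H3WT libraries (circles) and H3K9M libraries (triangles), ordered by the mean of both groups, with an open circle at 0.005 for the Ucp3 library without counts. Slc25a4 is highest at 434 CPM per kilobase in H3WT, Ucp3 lowest at 0.034, and Ucp2 is the gene whose triangles lie farthest from its circles among those above 1 CPM per kilobase.

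CPM per kilobase of exon gives a rough comparison between genes. On this scale Slc25a4 had a mean of 417 over both groups, Slc25a5 of 201, Slc25a3 of 86.1, Slc25a39 of 42.3 and Slc25a11 of 40.9. The first 3 were separated from each other and from the next gene in every library, whereas the libraries of Slc25a39 and Slc25a11 overlapped. From Slc25a17 downwards to Slc25a27 each member overlapped the next one in this order. Lengths are the union of all annotated exons, so genes with long rarely used exons are set too low. The order of Slc25a5 and Slc25a3 turns on these lengths, 1646 and 5550 bases. By CPM alone Slc25a3 (445 to 511) stood above Slc25a5 (303 to 377) in every library. At the bottom, Slc25a53, Slc25a34 and Ucp3 were at 0.129, 0.092 and 0.034 CPM per kilobase in H3WT. Slc25a34 with 80 counts and Ucp3 with 75 lay just inside the minimum of 60 counts and Slc25a18, a glutamate carrier with 24, just outside it. Slc25a34, with 5, 9 and 33 counts in H3WT and 21, 7 and 5 in H3K9M, had too few for the test, which left 41 of 42 members.

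The calcium-regulated ATP-Mg/phosphate carriers, which adjust the nucleotide pool of the matrix, had positive fold changes in 3 of 3 genes, none past the test, and those of Slc25a23 and Slc25a25 turned negative in at least 1 fit without 1 library. Slc25a24 was at 51.8, 59.0 and 68.3 CPM in H3WT against 81.0, 68.7 and 66.1 CPM in H3K9M, with H3WT replicate 3 inside the range of H3K9M (log2 fold change 0.27 ± 0.12, edgeR adjusted p = 0.307). Slc25a23 was at 106 ± 9.44 and 106 ± 13.3 CPM, and Slc25a25 at 17.2 ± 2.27 and 18.1 ± 3.29 CPM.

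Among the di- and tricarboxylate carriers 3 of 3 had negative fold changes, again none past the test. Slc25a1, which exports citrate for fatty acid synthesis, was at 70.3, 68.7 and 55.0 CPM in H3WT against 52.4, 56.0 and 49.98 CPM in H3K9M. H3WT replicate 3 fell within the H3K9M range, while the other two H3WT libraries stood above it. The log2 fold change was -0.29 ± 0.11 with an edgeR adjusted p of 0.219. Slc25a11, the oxoglutarate carrier of the malate-aspartate shuttle, was at 95.5, 86.5 and 92.5 CPM in H3WT against 80.3, 80.8 and 85.0 CPM in H3K9M. Its groups did not overlap, and the difference of -0.16 ± 0.07 on the log2 scale did not pass (adjusted p = 0.313). Slc25a10, the dicarboxylate carrier, was at 27.4 ± 3.005 and 23.1 ± 4.04 CPM.

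Amino acid carriers had small positive fold changes in 7 of 7 tested genes, from 0.02 to 0.28, with 0 called in edgeR. The sign was not stable in 4 of them, Slc25a13, Slc25a15, Slc25a22 and Slc25a44, which turned negative in at least 1 fit without 1 library. Slc25a12, the aspartate-glutamate carrier aralar of heart and brain, was at 112, 109 and 117 CPM in H3WT against 127, 127 and 128 CPM in H3K9M. The H3K9M libraries all stood above the H3WT libraries, but the difference was small (log2 fold change 0.18 ± 0.06, edgeR adjusted p = 0.223). Slc25a13, the aspartate-glutamate carrier citrin of liver, was at 18.1, 18.5 and 27.3 CPM in H3WT against 27.1, 19.4 and 21.0 CPM in H3K9M, with 1 high library in each group. Slc25a29, a carrier of basic amino acids, was at 4.53 ± 0.47 and 5.51 ± 0.28 CPM without overlap (0.28 ± 0.17, adjusted p = 0.473). The glutamate carrier gene Slc25a22, the ornithine carrier gene Slc25a15, the glycine carrier gene Slc25a38 and Slc25a44, which carries branched-chain amino acids, had log2 fold changes between 0.02 and 0.11 with adjusted p-values of at least 0.743.

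Slc25a20, the carnitine-acylcarnitine carrier, was at 32.5, 32.2 and 30.8 CPM in H3WT against 30.7, 33.3 and 30.2 CPM in H3K9M. The groups overlapped almost fully, and the interval of the log2 fold change, -0.21 to 0.17, is narrow (-0.02 ± 0.08, edgeR adjusted p = 0.936).

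Both iron carriers had positive fold changes and neither passed, and that of Slc25a28 turned negative in at least 1 fit without 1 library. Slc25a37, mitoferrin 1, the iron importer of red cell precursors, was at 27.4, 30.9 and 32.2 CPM in H3WT against 38.0, 34.8 and 39.6 CPM in H3K9M. All H3K9M libraries lay above all H3WT libraries, and of the members after Ucp2 this one had the smallest p (log2 fold change 0.31 ± 0.10, unadjusted p = 0.0111, edgeR adjusted p = 0.157). Of 10 erythroid markers 1 was analysed here, Epor, at 0.72 ± 0.28 CPM in H3WT against 0.19 ± 0.11 CPM in H3K9M. Slc25a28, mitoferrin 2 of other tissues, was at 14.4 ± 1.26 and 15.3 ± 2.25 CPM (0.09 ± 0.14). There were 2.06 to 2.14 counts of Slc25a37 for each count of Slc25a28 in H3WT and 2.00 to 3.06 in H3K9M.

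Of the 11 carriers of coenzymes, nucleotides, glutathione and vitamins 5 had positive and 6 negative fold changes, between -0.16 and 0.12. Slc25a39, the glutathione importer, was at 103, 118 and 114 CPM in H3WT against 121, 123 and 120 CPM in H3K9M, above H3WT throughout but by little (0.12 ± 0.07, edgeR adjusted p = 0.484). Slc25a51, the NAD carrier, was at 90.8 ± 6.30 and 90.6 ± 3.08 CPM. Its interval ran from -0.17 to 0.17 on the log2 scale. Slc25a33, a pyrimidine nucleotide carrier, varied widely within H3WT, with 4.63, 7.35 and 9.92 CPM in H3WT against 6.45, 6.17 and 7.19 CPM in H3K9M. Slc25a17 of peroxisomes, the coenzyme A carrier gene Slc25a42, the folate carrier gene Slc25a32, the S-adenosylmethionine carrier gene Slc25a26, the pyrimidine carrier gene Slc25a36 and the genes Slc25a16 and Slc25a40 had edgeR adjusted p-values between 0.529 and 0.991.

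Slc25a46, an outer membrane protein that takes part in the shaping of mitochondria, was at 54.5, 53.0 and 55.8 CPM in H3WT against 49.3, 48.7 and 49.1 CPM in H3K9M. The libraries of each group lay close together and apart from the other group, yet the difference was only -0.15 ± 0.07 on the log2 scale and did not pass (edgeR adjusted p = 0.325). Of the 5 tested members with little known function 4 had negative fold changes. Slc25a35 was at 6.13, 4.36 and 3.83 CPM in H3WT against 2.66, 3.55 and 2.77 CPM in H3K9M. Its groups did not overlap and its log2 fold change of -0.67 ± 0.25 was the lowest of all members, but it did not pass (adjusted p = 0.228). Slc25a35 and Rangrf, on opposite strands, share 25.0% of the 50-base words of Slc25a35 transcripts, and with the strand setting of the counting unknown their reads cannot be told apart with certainty. Rangrf was at 5.59 ± 1.91 CPM in H3WT against 4.15 ± 0.30 CPM in H3K9M (-0.43 ± 0.26, adjusted p = 0.467). Slc25a47, known from liver, was at 2.73, 2.63 and 2.91 CPM in H3WT against 2.24, 2.67 and 1.15 CPM in H3K9M, with H3K9M replicate 3 alone far below the rest.

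**Figure D4:**
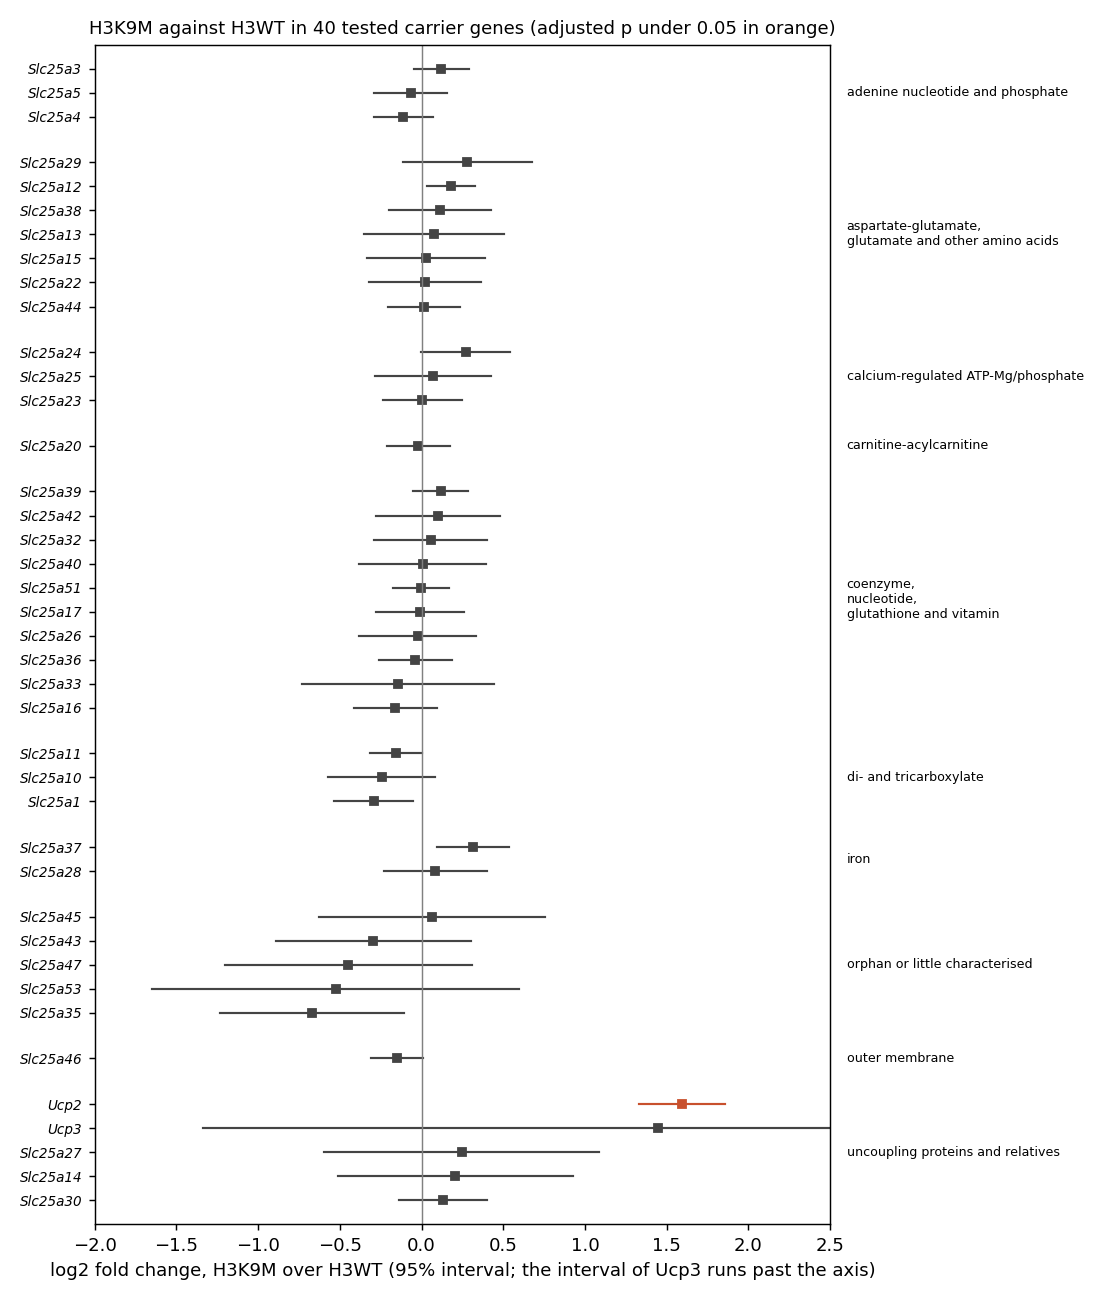
Log2 fold change of H3K9M over H3WT with its 95% interval (horizontal axis) for 40 tested members, grouped by role, with the member past an adjusted p of 0.05 in orange. Ucp2 at 1.59 is the only one in orange, and the interval of Ucp3, from -1.34 to 4.24, runs past the right edge of the axis.

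Over the 41 tested members the median log2 fold change was 0.02, beside 0.00 over all 14758 tested genes, with 24 positive and 17 negative. The groups did not overlap in 9 members, 6 higher and 3 lower, beside 22.6% of all tested genes, so that their share is that of the background. DESeq2, which called 7.18% of the genes it gave an adjusted p, and limma-voom also called Ucp2 alone among the members. No member was called lower in any of the 3 tools, and 2 were lower at an unadjusted p under 0.05 in each tool. At that unadjusted threshold edgeR had 3 higher members, Ucp2, Slc25a37 and Slc25a12, and the 2 lower ones were Slc25a1 and Slc25a35, where 16.4% of all tested genes passed it. Of the 40 tested members other than Ucp2, 30 had a 95% interval that lay wholly within a 1.5-fold change in either direction. For the other 10, Slc25a35, Slc25a47, Slc25a53 and Ucp3 among them, these libraries leave a change of that size possible. All members summed to 2928 ± 109 CPM in H3WT against 2928 ± 55.0 CPM in H3K9M.

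The 4 members on the X chromosome are Slc25a5, Slc25a14, Slc25a43 and Slc25a53, and the libraries differed in their sex-linked transcripts. Xist, the RNA of the inactive X chromosome, ranged from 71.3 to 376 CPM in H3WT and from 136 to 265 CPM in H3K9M, and the sum of 4 Y-linked genes from 62.2 to 165 CPM and from 63.3 to 128 CPM. Both ranges overlapped between the groups. Slc25a43 was at 4.10 ± 0.82 CPM in H3WT against 3.34 ± 0.83 CPM in H3K9M, and Slc25a53 at 1.03 ± 0.26 and 0.71 ± 0.40 CPM. None of the 4 passed in edgeR in any setting tried, including a fit with the Y-linked level as a term.

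Other mitochondrial lists held 0 or 1 called gene each, a number near the background of 1.99% called, so nothing is read from these counts about the lists. Of 23 genes for the pyruvate carrier, the outer membrane channels and other transport, 1 was called higher and 0 lower, with a median log2 fold change of 0.08. The called gene was Abcb8, a half-transporter of the inner membrane, at 31.1 ± 1.197 CPM without the mutant and 43.1 ± 2.65 CPM with it (0.47 ± 0.08 on the log2 scale, edgeR adjusted p = 0.0362). The channel genes Vdac1 and Vdac2 were at 394 ± 35.8 and 353 ± 28.6 CPM in H3WT against 418 ± 30.1 and 393 ± 12.4 CPM in H3K9M. Of 22 genes of fatty acid oxidation 1 was called, and the median was 0.05. It was Acaa2, the last enzyme of the cycle, which rose from 63.9 ± 4.17 to 87.6 ± 3.93 CPM (0.46 ± 0.08, adjusted p = 0.0291). Leaving out a library ended the calls on Abcb8 and Acaa2 in 5 of 6 cases (edgeR adjusted p 0.0730 to 0.148 and 0.0647 to 0.133), the exception being H3WT replicate 3. With the replicate block they had adjusted p-values of 0.103 and 0.121, with replicates 2 and 3 alone 0.0620 and 0.0724, and with the Y-linked term that of Abcb8 was 0.0501.

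In edgeR none of the 36 genes of respiratory complex I, the 27 of complexes II to IV, the 16 of the ATP synthase, the 25 of the tricarboxylic acid cycle and its shuttle, the 17 regulators of mitochondrial biogenesis, the 22 of protein import and the 18 of mitochondrial shape passed. Their median log2 fold changes lay between -0.02 for the regulators and 0.10 for the tricarboxylic acid cycle. Atp5b, the catalytic subunit of the ATP synthase, was at 2015 ± 134 CPM in H3WT against 2214 ± 79.6 CPM in H3K9M. Cs, citrate synthase, a common gauge of mitochondrial content, was at 494 ± 65.9 and 564 ± 49.6 CPM (0.19 ± 0.11, edgeR adjusted p = 0.456).

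**Figure D5:**
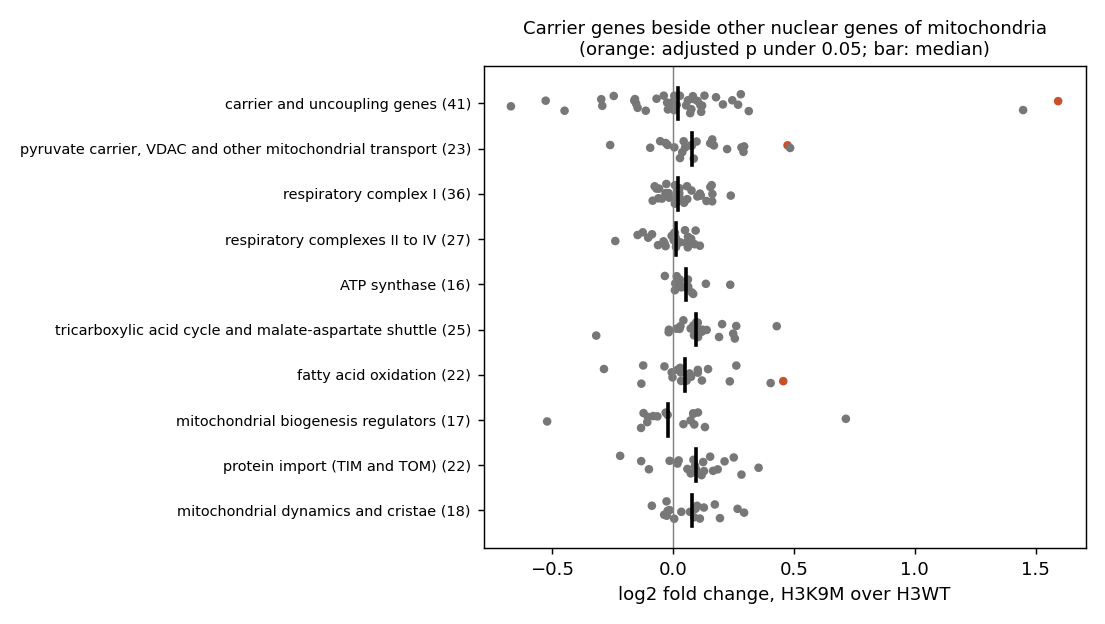
Log2 fold change of H3K9M over H3WT (horizontal axis) of each tested gene in the carrier family and in 9 other lists of nuclear genes for mitochondrial proteins, with the number of tested genes in brackets and the median as a black bar. Points past an adjusted p of 0.05 are orange: Ucp2 at 1.59, Abcb8 at 0.47 and Acaa2 at 0.46.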

How the data were processed

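The values are raw read counts per gene, which the authors deposited as whole numbers for 15159 genes in 6 libraries. HISAT2, featureCounts and build mm10 come from the submitters' processing notes. Their versions, strand setting and filters were not given in the sources used here, and the smallest row total is 19. The authors also deposited a DESeq2 comparison, which lists mean normalised counts (a signal), the log2 fold change and its standard error, and p-values with adjusted p-values. The score column of the authors, a Wald statistic, was not used.

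The filter filterByExpr (minimum count 10, minimum total 15) kept 14758 genes, which were normalised with TMM and tested with edgeR 4.0.16 (quasi-likelihood F test, group as the only term, Benjamini-Hochberg adjustment over all tested genes at 0.05) in R 4.3.3. Standard errors are the fold change over the square root of F, and intervals are 95%. The biological coefficient of variation was 18.8%. An exact permutation test of 3 libraries against 3 cannot give a p under 0.1. CPM use TMM-scaled library sizes, and CPM per kilobase the exon union of GENCODE M21, in which all 42 members were found.

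On simulated counts of 14758 genes for H3K9M against H3WT, edgeR found 72% of the 2-fold and 80% of the 4-fold changes and made 19 false calls among 171. Chi-square per gene between replicates was 27.2 to 121, so no library repeats another. The members, gene lists and tests were chosen with earlier results of these data known. Any member may be named, and of other lists the called genes and the 2 most abundant ones, and genes that overlap a member. Alternatives were DESeq2 1.42.0, limma-voom (limma 3.58.1), other scalings and filters, a replicate block, a Y-linked term, replicates 2 and 3 alone, and leaving out each library. Further lists of smooth muscle, neuronal and brown fat markers had 0 of 10, 1 of 8 and 0 of 5 tested genes past the test, where 1.99% of all tested genes were. The neuronal gene was Gap43, at 2.48 ± 0.97 CPM in H3WT against 0.41 ± 0.13 CPM in H3K9M (edgeR adjusted p = 0.0313). The values of 1 member, which counts and medians include, are not reported here. Sequences are RefSeq's.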

Additional observations from a re-analysis of the deposited data

How the results depend on the processing

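In each of the 16 alternative fits 1 member was called higher and 0 lower, and likewise with a minimum of 600 summed counts or an adjusted p under 0.1. Ucp2 kept its call in all 16, with a log2 fold change of 1.69 with replicates 2 and 3 alone and of 1.51 to 1.69 without 1 library. No other member passed in any of them. The number of genes called higher and lower over the whole table moved more: 475 and 544 with DESeq2 (7.18% of genes with an adjusted p), against 138 and 155, and 30 to 149 and 30 to 223 without 1 library, lowest without H3WT replicate 2. With the replicate number as a block, 31 and 27 genes were called and Ucp2 had an adjusted p of 0.0180. Whether same-numbered libraries were paired is not stated. The titles of replicates 1 and 3 carry the same M mark in both groups, whereas those of replicate 2 carry different ones. What this mark means is not stated. The deviations of same-numbered libraries correlated at -0.16, 0.03 and -0.07, and not every library correlated best with its own number. With so few libraries this cannot decide whether they were paired. Of 632 values for 40 members, 54 had the opposite sign, none of them called, and 20 members kept their sign throughout. With replicates 2 and 3 alone the opposite sign was seen for Slc25a13 (-0.19), Slc25a14 (-0.060), Slc25a15 (-0.16), Slc25a20 (0.0098), Slc25a22 (-0.19), Slc25a23 (-0.077), Slc25a25 (-0.19), Slc25a36 (0.038), Slc25a42 (-0.025) and Slc25a51 (0.044). Upper quartile scaling gave -0.0065 for Slc25a23 and -0.0031 for Slc25a40, the filter of 5 CPM in 3 libraries -0.0050 and -0.0040, and the Y-linked term -0.0016 for Slc25a40. Slc25a51 was at 0.00048 with DESeq2 and 0.00047 with RLE factors. Without 1 library, values of both signs ran from -0.14 to 0.015 for Slc25a5, -0.081 to 0.30 for Slc25a13, -0.010 to 0.54 for Slc25a14, -0.14 to 0.15 for Slc25a15, -0.13 to 0.080 for Slc25a17, -0.069 to 0.0062 for Slc25a20, -0.15 to 0.12 for Slc25a22, -0.098 to 0.083 for Slc25a23, -0.087 to 0.17 for Slc25a25, -0.074 to 0.037 for Slc25a26, -0.00098 to 0.64 for Slc25a27, -0.026 to 0.19 for Slc25a28, -0.021 to 0.18 for Slc25a32, -0.39 to 0.14 for Slc25a33, -0.092 to 0.040 for Slc25a36, -0.11 to 0.12 for Slc25a40, -0.046 to 0.087 for Slc25a44, -0.15 to 0.36 for Slc25a45 and -0.040 to 0.052 for Slc25a51. The cause of these sign changes was not tested. Ucp3 and Slc25a34 had 75 and 80 counts in all 6 libraries together, too few to read a change from.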

Other observations

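The authors' deposited table lists mean counts far below the deposited counts. Its mean normalised count of Ucp2 was 515, where the mean count of Ucp2 over the 6 libraries was 2164, and that of Slc25a4 was 14683 against 58409. Over 12260 genes with at least 600 counts the median of this ratio was 0.252, with an interquartile range of 0.244 to 0.260. For 30 of 41 members the sign of the authors' log2 fold change was that found here. Slc25a37, second to Ucp2 by p-value here with 0.31, was at 0.15 in the authors' deposited table.

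Some carriers varied between libraries of a group by more than the groups differed. Slc25a27 ranged from 1.14 to 2.71 CPM within H3WT and Slc25a45 from 2.37 to 4.78 CPM, each with all 3 H3K9M libraries in between.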
